A study of Mus musculus with 10 samples.

Results

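The 5 tumours described here are the vehicle group of a mouse study of RNA sensing in kidney cancer: the samples whose labels give PBS as the treatment, PBS 1 to PBS 5, out of 10 sequenced tumours. RENCA, a transplantable renal adenocarcinoma line of BALB/c origin, was grown under the skin of female Balb/c mice. Mice were assigned at random once a tumour measured 100 to 150 mm3, and each tumour then received 3 injections 48 h apart and was collected 24 h after the last one. The other 5 tumours, which were injected with lipid nanoparticles carrying the RIG-I ligand SLR14, were not tested against the vehicle group here. The vehicle was PBS alone, so that needle injury and fluid were part of the baseline, whereas a nanoparticle was not. All tumours come from 1 cell line, and the tumour cells and the host cells have the same mouse genome, so a read cannot be assigned to either.

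RENCA cells come from the epithelium of the renal cortex. Kidney epithelium is specified by transcription factors such as Pax8 and Pax2, and kidney carcinomas often keep part of this programme while losing the transporters of the mature tubule. A tumour under the skin is also a tissue: macrophages, fibroblasts and vessels of the host are measured with the tumour cells, and skin, muscle and blood can be carried along at dissection. A bulk level therefore mixes how many cells of a type are present with how much RNA each holds, and fewer cells of a type cannot be told apart from less RNA per cell.

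Levels were read from the deposited counts of 18603 genes as CPM, the counts of a gene when a library is scaled to 1000000, with edgeR's TMM factors between the 5 tumours. Genes were compared with each other only as CPM per kilobase (kb) of exon length. The total count was 24161644 to 34024137 per tumour, and a gene with 0 counts could still have a level of up to 0.0911 to 0.119 CPM, which is what 3 counts stand for. A mean level of at least 1 CPM was reached by 13757 genes, of at least 10 CPM by 9715, of at least 100 CPM by 2627 and of at least 1000 CPM by 59. Values are means ± SD over n = 5 tumours unless another number is given, and a run of 5 values gives PBS 1 to PBS 5 in that order. The 5 tumours came from separate mice, as the design text counts 5 mice in each group.

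PBS 5 stood apart from the other 4 tumours across the transcriptome. Among the 13757 genes at 1 CPM or more it was the highest tumour for 36.0% and the lowest for 35.9%, where an even spread would give 20% each. The Pearson correlation of log2(CPM + 1) across these genes was 0.994 between PBS 1 and PBS 2, and between PBS 4 and PBS 5 it was 0.964, the lowest of the 10 pairs. Genes are not independent replicates, so these coefficients describe the libraries only. Between PBS 4 and PBS 5, 1534 genes differed by more than 2-fold, against 231 between PBS 1 and PBS 2.

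The deviation of PBS 5 ran with gene length. When genes at 10 CPM or more were ranked by exon length and divided into 10 equal classes, the median log2 ratio of PBS 5 to the mean of the other 4 tumours was 0.48 in the shortest class (up to 1891 bases) and −0.57 in the longest (from 10274 bases). It passed zero between the fourth class, at 0.06, and the fifth, at −0.07. PBS 1 had the opposite order, from −0.26 in the shortest to 0.24 in the longest class. PBS 3 was nearly flat, between −0.08 in the shortest and 0.00 in the longest class. RNA quality was not recorded in the labels, and its part in this order was not tested. For several lists whose spread rests on PBS 5, the CV is given below with and without it. Lists without such a pair below can depend on PBS 5 too. With and without PBS 5, the CV of the sum was 0.191 and 0.0985 for lymphatic endothelium, and 0.241 and 0.172 for podocyte genes. For the mesenchymal list it was 0.112 and 0.0733.

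**Figure D1:**
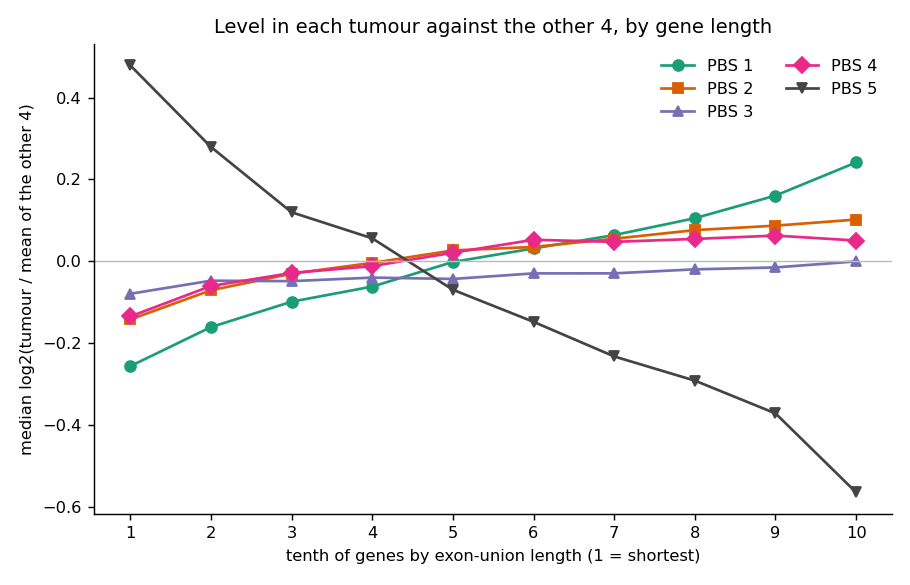
Median log2 ratio of each PBS tumour to the mean of the other 4 (y axis) in 10 classes of genes ordered by exon-union length (x axis), for genes at a mean of at least 10 CPM. PBS 5 descends from 0.48 to −0.57, while PBS 1 ascends and PBS 3 stays near zero.

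Psap, the precursor of the saposins that activate lysosomal lipid breakdown, led all genes with a length at 2636 ± 313 CPM per kb. Its levels were 6525, 7977, 6912, 8312 and 6441 CPM in PBS 1 to PBS 5, so the highest and lowest tumours differed by 1.29-fold. Next came Ftl1, the light chain of ferritin, at 1812 ± 304 CPM per kb, then Actb, cytoplasmic actin, at 1729.6 ± 189, and Eef1a1, which delivers aminoacyl-tRNA to the ribosome, at 1604 ± 356. The ranges of Ftl1, Actb and Eef1a1 over the 5 tumours overlapped, so their order is not beyond the spread. Ftl1 and Eef1a1 were highest in PBS 5, and Actb was lowest there.

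Genes known from carcinoma cells and macrophages were among the 25 highest. Spp1, the secreted phosphoprotein osteopontin, had 1399.9, 1393, 1302, 1453 and 1998 CPM and stood at 916 ± 169 CPM per kb. Krt8 and Krt18, the paired keratins of simple epithelia, stood at 737 ± 97.1 and 601 ± 61.9 CPM per kb. Lyz2, the lysozyme of macrophages and other myeloid cells, stood at 737 ± 130.5 CPM per kb. B2m and H2-D1, the light and a heavy chain of class I MHC, stood at 890.04 ± 145 and 724 ± 128 CPM per kb. Balb/c mice carry other H2 alleles than the reference genome, and how this acted on the H2 counts was not tested.

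**Figure D2:**
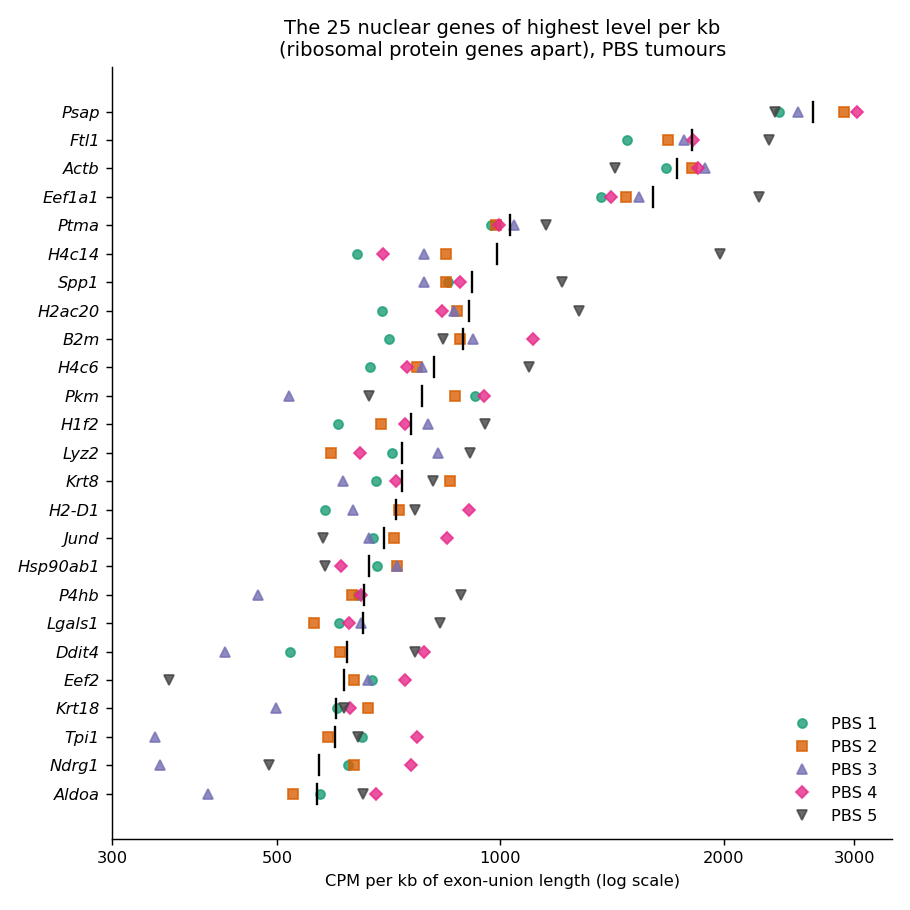
CPM per kb of exon-union length on a log axis for the 25 nuclear genes of highest mean level, ribosomal protein genes left apart. Each symbol is 1 PBS tumour and each vertical bar the mean of the 5. Psap leads at 2636 CPM per kb, PBS 5 is the highest tumour for the 4 histone genes shown, and PBS 3 is the lowest for the glycolytic genes Pkm, Tpi1 and Aldoa.

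Glycolytic and stress-induced genes were in the same list. Pkm, the pyruvate kinase gene, Tpi1, triose phosphate isomerase, and Aldoa, aldolase A, stood at 785 ± 186, 599 ± 158 and 567 ± 110.1 CPM per kb. Ndrg1 and Ddit4, which are induced by low oxygen and other stresses, stood at 570.3 ± 157 and 622 ± 157. With the longest transcript of each gene in place of the exon union, 19 of the 25 genes were again among the 25 highest.

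The 100 genes with most counts held 14.8 ± 0.679% of the counts of a tumour, and 1172 to 1282 genes were needed to reach 50% of them. The 77 cytosolic ribosomal protein genes, led per kb by Rpl41 at 1063 ± 554 CPM per kb, summed to 20296, 21318, 23090.1, 22342 and 35415 CPM. PBS 5 was above the other 4 on that sum. It was the highest tumour for 72 of the 76 members at 1 CPM or more, against 36.0% of all genes at that level. Ribosomal protein genes have a median exon length of 1781 bases, in the range where PBS 5 was high for genes in general, and the CV of the sum went from 0.253 to 0.0559 without PBS 5.

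Transcripts of the mitochondrial genome summed to 6009, 6819, 3486, 6361 and 2349 CPM. PBS 5 was the lowest tumour and PBS 3 the next lowest. mt-Co1, a core subunit of cytochrome c oxidase, had 1692, 2134, 1145, 1951 and 588 CPM. These genes are short (median 998 bases), so PBS 5 was low here although it was high for short nuclear genes. The library kit depletes mitochondrial ribosomal RNA, but a part of it was still counted. The ribosomal RNA gene mt-Rnr2 stood at 844 CPM per kb, next after mt-Co1 at 972. Genes of mitochondrial tRNA and rRNA are part of the 12 genes summed, and how the depletion acted on the sum was not tested.

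RNAs without the usual poly(A) tail were measured although the labels name polyadenylated RNA. Rn7sk, the small nuclear RNA that holds back the elongation factor P-TEFb, had the highest CPM of all genes at 7048, 6149.6, 9795, 8926 and 11633 CPM. It was singled out after its values were seen. Histone genes that are active in S phase, a symbol pattern of 59 genes also chosen after the values were seen, summed to 4842, 5947, 6716, 5588 and 9806 CPM. On the sum PBS 5 was the highest and PBS 1 the lowest tumour, as for short genes in general. The CV of the sum was 0.293 with PBS 5 and 0.135 without it. By member the lead was less clear: of the 57 genes at 1 CPM or more, 28 were highest in PBS 5 and 25 in PBS 3. Of all genes at that level, 36.0% were highest in PBS 5 and 17.8% in PBS 3. H4c14 alone made up 24.5% of the sum. H4c14, which encodes histone H4, had 1046, 1379, 1286, 1131 and 3219.6 CPM, and its CV of 0.563 over 5 tumours became 0.124 over PBS 1 to PBS 4. Histone genes are near copies of each other, and how reads were divided among them is not given in the sources used here.

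The label of a renal tumour was met by nephron transcription factors. Of 16 nephron transcription factors listed, 11 were measured and 8 had a mean of 1 CPM or more, and the listed genes without a measurement were not analysed here. Pax8, the lineage factor kept in most renal carcinomas, had 103, 90.3, 108, 102 and 66.0 CPM in PBS 1 to PBS 5, or 15.5 ± 2.79 CPM per kb. Pax2, its paralog in nephron formation, had 40.1, 33.9, 42.9, 40.2 and 18.9 CPM. Every tumour expressed both genes, and PBS 5 was the lowest tumour for each.

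Per kb, Irx3, a homeobox gene of nephron segmentation, was the highest factor at 15.6 ± 2.69 CPM per kb. Gata3, which acts in the nephric duct and collecting duct, followed Pax8 at 11.7 ± 2.82, and Sall1, Emx2 and Pou3f3 stood at 9.75 ± 2.54, 8.40 ± 1.54 and 8.30 ± 1.59. Neighbours in this order overlapped in their ranges. The remaining 3 factors were under 1 CPM: Lhx1, which acts in the early nephric lineage, Six2, which maintains nephron progenitors, and Wt1, a podocyte and progenitor factor, had means of 0.314, 0.160 and 0.406 CPM. All 8 expressed factors were lowest in PBS 5, against 35.9% of all genes at 1 CPM or more. The CV of the summed CPM of the list was 0.198 with PBS 5 and 0.0686 without it.

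Of the 11 proximal tubule genes measured, 7 had a mean of 1 CPM or more, and their levels per kb spanned a wide range. Gpx3, the plasma glutathione peroxidase made by the proximal tubule, had 561, 613, 822, 533 and 847 CPM and stood at 372 ± 82.0 CPM per kb. It made up 84.5% of the summed CPM of the list. Aqp1, the water channel of proximal tubule and of some endothelium, had 66.6, 86.9, 54.6, 109 and 70.5 CPM. Anpep, an aminopeptidase of the brush border, stood at 5.67 ± 1.70 CPM per kb, Ass1, an enzyme of arginine synthesis, at 2.95 ± 1.10 and Slc13a3, a dicarboxylate transporter, at 0.577. Lrp2, the endocytic receptor megalin, had 9.18, 5.68, 8.92, 6.44 and 4.06 CPM, or 0.411 CPM per kb of a long gene, and its partner cubilin, Cubn, stood at 0.0666. Pck1 and Fbp1, of gluconeogenesis, and Dpep1, a dipeptidase, stood at 0.149, 0.136 and 0.0901 CPM per kb.

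Cdh16, kidney-specific cadherin, had 339.6, 345, 417, 363 and 323 CPM, or 94.3 ± 9.52 CPM per kb, and made up 97.1% of the sum of the distal list. Aqp2, the vasopressin-regulated water channel of the collecting duct, stood at 5.24 ± 1.06 CPM per kb. Scnn1a, Aqp3 and Slc12a3, a sodium channel subunit, a water channel and the thiazide-sensitive transporter, stood at 0.726, 0.112 and 0.0201 CPM per kb. Of the podocyte list, Clic5 (25.8 ± 7.66 CPM per kb) and Synpo (14.9 ± 3.67) were the highest.

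**Figure D3:**
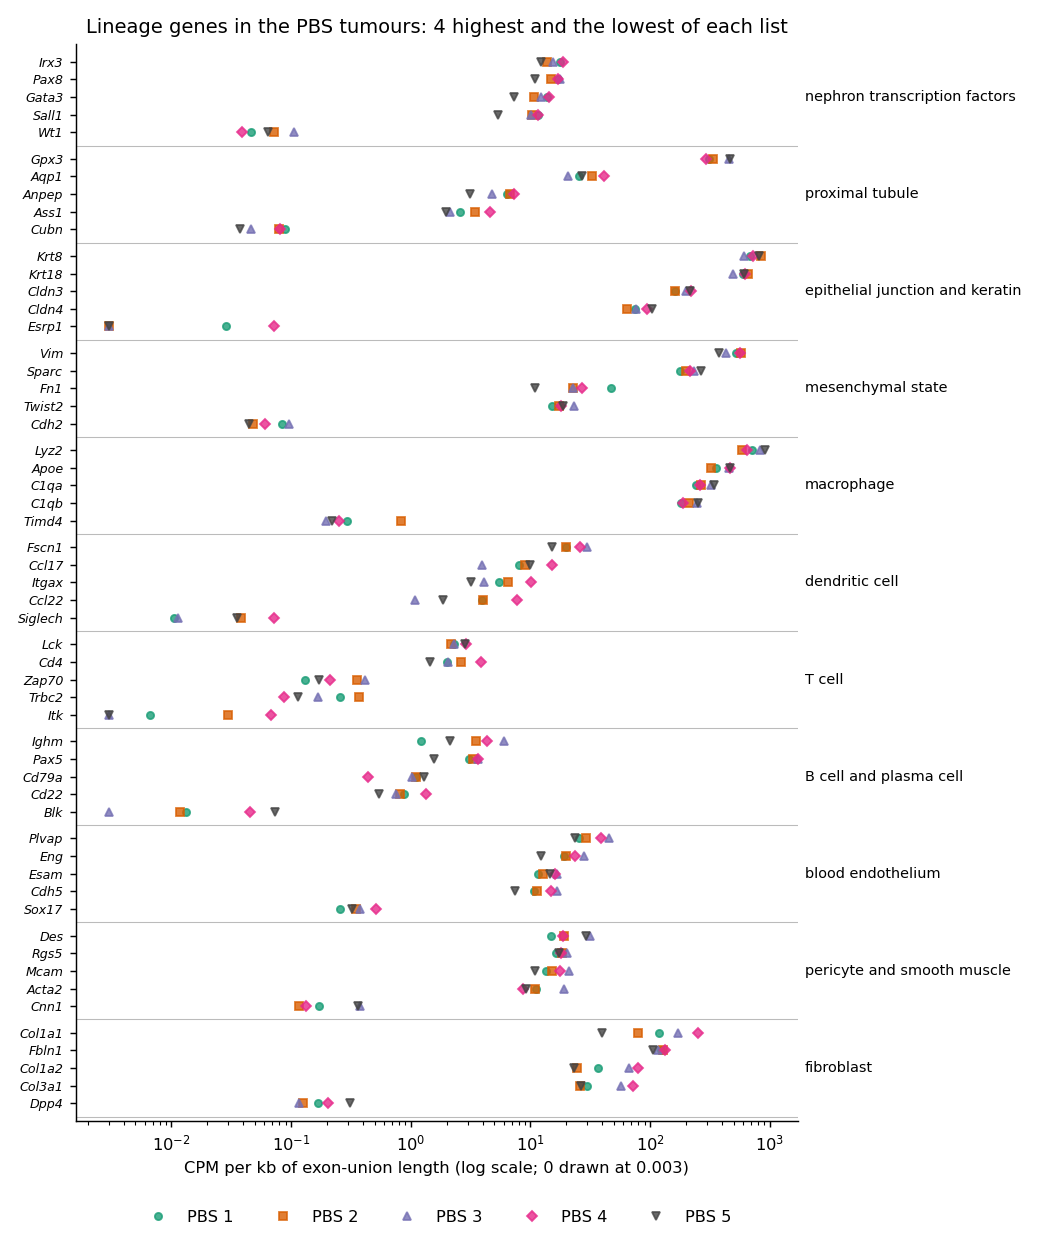
CPM per kb of exon-union length on a log axis for the 4 highest members and the lowest member of 11 lineage lists; each symbol is 1 PBS tumour, and values of 0 are drawn at the left edge. The spread between the tumours is small beside the range between genes, from 0.0201 CPM per kb for Esrp1 to 737 for Lyz2.

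Of the 19 epithelial genes measured, simple keratins and claudins were high, and Epcam, occludin and the epithelial splicing regulators were low. Krt8 had 1331, 1673, 1203, 1418 and 1588 CPM. Krt18 had 866, 953, 716, 902 and 884 CPM. Cldn3 and Cldn4, tight junction claudins, stood at 193 ± 28.5 and 82.7 ± 16.0 CPM per kb. Cdh1, E-cadherin, had 238, 150.3, 199.99, 182 and 164 CPM, with PBS 1 the highest and PBS 2 the lowest tumour. In contrast Epcam, an epithelial adhesion molecule, had 2.61, 2.12, 2.73, 6.20 and 3.94 CPM, and the levels of Esrp1, a splicing regulator of epithelial cells, Ocln, the tight junction protein occludin, and Krt7 were 0.0201, 0.0716 and 0.0970 CPM per kb. Esrp2, the paralog of Esrp1, stood at 1.91.

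Mesenchymal genes were expressed beside the keratins. Vim, the intermediate filament vimentin, had 2463, 2709, 2057, 2699 and 1803 CPM, or 495 ± 84.9 CPM per kb, below Krt18 by its mean, with ranges that overlapped. Sparc, a secreted matrix protein, stood at 219 ± 34.5 CPM per kb. Of the transcription factors that repress epithelial genes, Twist2 and Snai1 stood at 18.5 ± 2.94 and 16.2 ± 2.41, Zeb1 and Zeb2 at 5.00 ± 1.20 and 4.80 ± 1.23, and Twist1 and Snai2 at 0.796 ± 0.509 and 0.336 ± 0.230 CPM per kb. Cdh2, N-cadherin, stood at 0.0664. Fn1, fibronectin, had 554, 265, 263, 316 and 128 CPM, highest in PBS 1 and lowest in PBS 5, and host fibroblasts and macrophages also make it.

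All 15 tumour suppressors of the kidney cancer list were expressed at 1 CPM or more, and their summed CPM had a CV of 0.0465. This CV was 0.0298 without PBS 5, 0.0252 with total counts and 0.0171 with upper-quartile factors. Cdkn2a, the locus of the p16 and p19Arf proteins, was the highest per kb with 191, 209.9, 215, 255 and 308 CPM and 201 ± 39.9 CPM per kb. Vhl, whose product marks HIF alpha subunits for degradation, had 71.5, 67.1, 59.2, 93.1 and 98.3 CPM. Trp53 had 45.4, 42.0, 57.1, 49.2 and 37.7 CPM. Bap1, Kdm5c, Pbrm1 and Setd2, chromatin regulators that are often mutated in clear cell carcinoma, stood at 44.5 ± 5.28, 33.7 ± 6.86, 23.1 ± 4.35 and 8.26 ± 2.11 CPM per kb. A level of RNA says nothing of mutations, which were not analysed here.

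Cell cycle genes were expressed in every tumour, with sums of 5315, 5289.9, 5225, 4738 and 4674 CPM. Pcna, the sliding clamp of DNA polymerase, led at 267 ± 47.7 CPM per kb. Mki67, the proliferation antigen, had 474, 378, 386, 301 and 147 CPM. Top2a, the topoisomerase of dividing cells, had 508, 474, 460.3, 413 and 369 CPM. PBS 5 was lowest for both, and the exon lengths of Mki67 and Top2a are 10061 and 9013 bases, in the length classes where PBS 5 was low for genes in general. Of the 30 cell cycle genes, PBS 5 was the highest tumour for 9 and the lowest for 14, and the CV of the sum was 0.0624. Over all genes at 1 CPM or more, PBS 5 was the highest tumour for 36.0% and the lowest for 35.9%.

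Genes of the hypoxia response differed between tumours, with PBS 4 high and PBS 3 low. The 24 genes summed to 9707, 9543, 5562, 11641 and 8126 CPM. PBS 4 was the highest tumour for 17 of the 24 and PBS 3 the lowest for 16. The shares over all genes at 1 CPM or more were 18.7% for PBS 4 as the highest and 17.3% for PBS 3 as the lowest. Ndrg1 had 4108, 4193, 2296, 5001 and 3212 CPM and made up 42.2% of the sum. Ddit4, an inhibitor of mTORC1, had 915, 1067, 747, 1385 and 1348 CPM. Vegfa, the main vessel growth factor, had 267, 231, 175, 316 and 179 CPM, again highest in PBS 4 and lowest in PBS 3.

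Of the oxygen-regulated transcription factors, Hif1a stood at 68.9 ± 10.01 CPM per kb and Epas1, which encodes HIF-2 alpha and is also an endothelial gene, at 5.16 ± 2.25, without overlap. Epas1 had 23.8, 25.6, 45.2, 37.0 and 12.6 CPM, and its highest tumour was PBS 3. Car9, carbonic anhydrase IX and a common HIF target of human clear cell carcinoma, had 0.572, 1.03, 1.12, 1.28 and 1.47 CPM, and Egln3, a prolyl hydroxylase induced by HIF, stood at 0.680 CPM per kb. Egln1 and Egln2, the other prolyl hydroxylases, stood at 88.6 ± 35.003 and 36.5 ± 1.69.

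Glycolysis sums followed the same order of tumours as hypoxia sums, although the lists share no gene. The 17 genes of glycolysis and lactate export summed to 17242, 15804, 10252, 19985 and 14421 CPM. PBS 4 was the highest tumour for 15 of them, against 18.7% of all genes at 1 CPM or more. PBS 3 was the lowest for 12, against 17.3% of all genes. Slc2a1, the glucose transporter GLUT1, had 407, 395, 144, 583 and 284 CPM. Hk2, an inducible hexokinase, had 328, 272, 181, 425 and 93.7 CPM. Ldha, which makes lactate, had 1554, 1477, 905, 1871 and 1899.9 CPM, and PBS 3 alone was below 1000 CPM. Of the lactate exporters, Slc16a1 stood at 77.2 ± 16.9 CPM per kb and Slc16a3 at 2.75 ± 1.06.

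Growth factor genes were dominated by Spp1, which made up 57.9% of the summed CPM of 27 ligands. Of the others, Vegfa and Vegfb stood at 54.5 ± 14.01 and 43.3 ± 6.55 CPM per kb, Csf1, the macrophage growth factor, at 39.1 ± 7.22, Tgfb1 at 34.0 ± 5.81 and Ccl2, the chemokine of monocytes, at 31.7 ± 11.2. The EGF-family ligands Egf, Areg and Tgfa stood at 0.176, 0.175 and 0.0347 CPM per kb, and Hgf at 0.156. Among receptor tyrosine kinases, Axl, a receptor for Gas6, had 278, 276, 292, 384 and 229 CPM. Ddr2, a collagen receptor, had 578, 536, 446, 467 and 368 CPM. Met, the receptor for Hgf, stood at 5.36 ± 0.626 CPM per kb and Fgfr1 at 42.6 ± 11.1, whereas Fgfr2, Fgfr3 and Ret were at 0.0179, 0.0404 and 0.0329. All 14 kinases at 1 CPM or more were lowest in PBS 5, against 35.9% of all genes at that level. The median exon length of the list is 6763 bases. The CV of the kinase sum was 0.175 with PBS 5 and 0.0751 without it.

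The CV of the summed level was 0.0977 for the unfolded protein response and 0.0454 without PBS 5. For lipid synthesis it was 0.152 and, without PBS 5, 0.0998. The 14 genes of the unfolded protein response summed to 5522, 5824, 5211, 5509 and 6675 CPM. Calr and Hspa5, chaperones of the endoplasmic reticulum, stood at 503 ± 60.7 and 335 ± 60.4 CPM per kb, and Atf4, the transcription factor of the integrated stress response, at 235 ± 39.2. The 22 genes of sterol and fatty acid synthesis summed to 5424, 4875, 4299, 5235 and 3683 CPM. Scd2, a fatty acid desaturase, had 1528, 1164, 709, 1508 and 722 CPM. Scd2 was high in PBS 1, PBS 2 and PBS 4 and low in PBS 3 and PBS 5.

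Immediate early genes, which respond within minutes to handling and to growth signals, summed to 2517, 2614, 2138, 3078 and 2119 CPM. Jund led at 697 ± 98.9 CPM per kb. Fos had 45.0, 33.1, 18.3, 55.4 and 19.8 CPM and Atf3 stood at 58.4 ± 11.3 CPM per kb. PBS 4 was the highest tumour for 12 of the 18 genes at 1 CPM or more, against 18.7% of all genes at that level.

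Macrophage genes held the highest levels per kb of the leukocyte lists, and their sum was the most even between tumours. The 20 genes measured summed to 4987, 4813, 5490.1, 5131 and 5196 CPM, a CV of 0.0492 that became 0.0779 with total counts and 0.0833 with upper-quartile factors. Apoe, a lipid carrier, and C1qa and C1qb, chains of complement C1q, stood at 413 ± 69.6, 287 ± 43.8 and 217 ± 32.3 CPM per kb. Adgre1, the F4/80 antigen, had 100.3, 112, 101, 109 and 93.4 CPM, and Csf1r, the receptor of Csf1, stood at 55.0 ± 11.9 CPM per kb. Mrc1, the mannose receptor CD206, stood at 100.1 ± 31.7. Other cells express Apoe, and tumour cells can express Gpnmb, a lysosomal glycoprotein at 153 ± 22.8 CPM per kb.

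Single members were less even. Of the 19 at 1 CPM or more, 2 had a CV above 0.5, against 2.58% of all genes at that level. Arg1, the arginase of some activated macrophages, had 4.97, 13.95, 0.961, 1.91 and 7.36 CPM, a CV of 0.892, with PBS 2 the highest and PBS 3 the lowest tumour. Vsig4, a complement receptor of resident macrophages, had 5.72, 2.60, 2.15, 1.09 and 3.74 CPM, a CV of 0.576, with PBS 1 the highest and PBS 4 the lowest. Cx3cr1, the fractalkine receptor, had 69.3, 68.8, 125, 105 and 77.6 CPM, with PBS 3 and PBS 4 above the other 3 tumours. Timd4, a gene of resident macrophages, had 0.643, 1.80, 0.423, 0.547 and 0.477 CPM, and only PBS 2 exceeded 1 CPM. Of the monocyte genes, F13a1, a coagulation factor subunit, had 266, 247, 141, 124 and 159 CPM and was highest in PBS 1 and PBS 2. Ccr2, the receptor of Ccl2, had 45.0, 42.7, 44.3, 56.2 and 52.9 CPM. Ly6c2 had 2.18, 2.28, 1.65, 1.61 and 1.87 CPM.

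Granulocyte and dendritic cell genes were lower. The 10 neutrophil genes measured summed to 34.0, 35.8, 49.5, 49.7 and 35.4 CPM. Padi4, a peptidylarginine deiminase, had the highest mean of them at 4.72 CPM per kb and made up 55.8% of the sum. S100a9 and S100a8, the calprotectin genes of neutrophils, stood at 3.00 ± 1.78 and 1.08 ± 0.324 CPM per kb. Ngp, a granule protein of immature neutrophils, had 0 counts in all 5 tumours and was the only gene of the table with none. Of the dendritic genes, Fscn1 (22.2 ± 5.73 CPM per kb), which other cells also express, was the highest and made up 49.6% of the summed CPM. Ccl17 and Ccl22, chemokines that attract Ccr4-bearing T cells, were both highest in PBS 4 and lowest in PBS 3. Ccl17 had 4.15, 4.65, 2.04, 7.78 and 5.09 CPM and Ccl22 9.15, 9.40, 2.54, 18.1 and 4.34 CPM. Xcr1, Clec9a, Flt3 and Siglech, the genes that define cross-presenting and plasmacytoid cells, stood at 0.0995, 0.0692, 0.121 and 0.0334 CPM per kb. Of mast cell and eosinophil genes 4 were measured, and they summed to 3.54, 3.27, 2.27, 5.29 and 1.07 CPM.

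Of the 17 T cell genes measured, 15 had a mean under 1 CPM, and Cd4 and Lck were above it. Cd4, which macrophages and dendritic cells also carry, had 8.08, 10.7, 8.31, 15.7 and 5.89 CPM. Lck, the kinase of the T cell receptor, had 6.68, 6.35, 6.69, 8.48 and 8.27 CPM. Cd3e, a chain of the receptor complex itself, had 0, 0.160, 0.154, 0.577 and 0.0398 CPM and Cd8a 0.107, 0.192, 0.154, 0.608 and 0.159 CPM. The level in PBS 4 was the highest for both, and in the other tumours Cd3e was at or below 0.160 CPM. Foxp3, the factor of regulatory T cells, stood at 0.0327 CPM per kb.

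Genes of natural killer and cytotoxic cells summed to 1.18, 3.37, 1.46, 1.55 and 1.31 CPM, and none of the 8 reached a mean of 1 CPM. PBS 2 stood above the other 4, and without it the CV of the sum was 0.119 in place of 0.509. Ncr1, the NKp46 receptor, had 0.107, 0.513, 0.0385, 0 and 0 CPM. Gzmb, granzyme B, had 0.143, 0.481, 0.115, 0.122 and 0.119 CPM. Cxcl9, an interferon-gamma-induced chemokine that was not on this list, was also highest in PBS 2, with 1.29, 5.90, 1.81, 1.79 and 0.636 CPM. These levels rest on few reads: Ncr1 had 16 counts in PBS 2, which was its highest count.

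Pax5 and Ighm were the highest of the B cell genes per kb. Pax5, a B lineage transcription factor of the Pax2, Pax5 and Pax8 subfamily, had 27.3, 29.2, 32.2, 32.1 and 14.001 CPM, with a CV of 0.280 over 5 tumours and 0.0801 without PBS 5. Cd79a, a chain of the B cell receptor, had 1.61, 1.60, 1.4996, 0.638 and 1.87 CPM, and Cd79b, its partner, stood at 0.181 CPM per kb against 3.05 ± 0.852 for Pax5. Ighm, the IgM heavy chain, had 2.29, 6.58, 11.5, 8.14 and 4.06 CPM, and its range overlapped that of Pax5 per kb. Per kb, Pax5 was at 3.05 CPM where Pax2 was at 6.51 and Pax8 at 15.5. The CV of the B cell sum was 0.267 with PBS 5 and 0.145 without it, and Pax5 alone made up 68.1% of that sum. Ms4a1 and the plasma cell gene Jchain were not analysed here.

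Vessel genes were highest in PBS 3. The 20 blood endothelial genes, all at 1 CPM or more, summed to 395, 442, 660.3, 574 and 365 CPM. PBS 3 was the highest tumour for 15 and PBS 4 for the other 5, against 17.8% and 18.7% of all genes. Plvap, a protein of fenestrated endothelium, had 50.9, 58.3, 89.5, 76.7 and 46.6 CPM. Pecam1, CD31, had 35.6, 38.7, 54.6, 58.6 and 32.5 CPM. Kdr, the VEGF receptor 2, had 21.0, 28.1, 45.7, 28.7 and 22.2 CPM. Aplnr, the apelin receptor of sprouting endothelium, which was not on the list, had 3.36, 6.61, 27.3, 5.10 and 6.05 CPM, and PBS 3 was 4.13-fold above the next tumour. PBS 3 was thus the highest tumour for vessel genes and the lowest for hypoxia and glycolysis genes. A relation between them was not tested, since 5 tumours are too few.

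Mural cell genes had the same leading tumour, with sums of 370.04, 392, 538, 415 and 361 CPM. PBS 3 was the highest tumour for 7 of the 11 members at 1 CPM or more, against 17.8% of all genes at that level. Des, desmin, had the highest mean per kb at 22.6 CPM per kb and made up 20.5% of the sum. Skeletal muscle also makes desmin, and skeletal muscle genes were highest in PBS 3 as well. The part of muscle in the mural sum was not tested. Rgs5, a pericyte gene, had 75.2, 83.2, 91.2, 82.7 and 78.4 CPM. Acta2, smooth muscle actin, had 24.6, 24.2, 41.8, 19.1 and 20.4 CPM. Of the lymphatic list, Pdpn made up 95.6% of the sum with 262, 301, 249, 235 and 382 CPM, and tumour cells and fibroblasts also express podoplanin. Flt4 and Lyve1, which mark lymphatic endothelium more closely, stood at 1.27 and 0.936 CPM per kb.

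Fibroblast and collagen genes ranged widely, from PBS 4 at the top to PBS 5 at the bottom. The 18 fibroblast genes summed to 3042, 2539, 3958, 5068 and 1709 CPM and the 36 collagens to 5533, 5016, 6773, 8141 and 2748 CPM. Both lists hold Col1a1, Col1a2, Col3a1, Col5a1 and Col6a1, so the sums are not independent of each other. Col1a1, the main chain of type I collagen, had 782, 523, 1120.3, 1650.1 and 263 CPM. Col3a1, type III collagen, had 290.3, 256, 563, 706 and 262 CPM. PBS 5 was the lowest tumour for 20 of the 29 collagens at 1 CPM or more, against 35.9% of all genes at that level. The median exon length of collagen genes is 7727 bases. The CV of the collagen sum was 0.358 over 5 tumours and 0.219 without PBS 5. Over PBS 1 to PBS 4 the CV of the fibroblast sum was 0.304, against 0.397 over all 5. Col18a1, the collagen that gives endostatin, had the highest mean of the collagens per kb at 137 ± 27.9 CPM per kb. Col1a1 followed at 132 ± 82.3, with a range that overlapped that of Col18a1 and reached above it, and Col4a1 of basement membranes stood at 88.4 ± 29.4. Pdgfra and Dpt, genes of resident fibroblasts, stood at 0.480 and 0.400 CPM per kb.

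RIG-I, the sensor that SLR14 binds, the related sensor MDA5 and their adaptor were expressed in every vehicle tumour. Rigi, which encodes RIG-I, had 28.5, 28.1, 27.5, 36.2 and 16.7 CPM. Ifih1, which encodes MDA5, had 32.9, 32.8, 29.4, 33.9 and 27.6 CPM. Mavs, the mitochondrial adaptor of both, had 78.7, 72.1, 97.2, 78.3 and 54.2 CPM. Per kb they stood at 3.89 ± 0.982, 3.84 ± 0.329 and 22.7 ± 4.62 CPM. All 3 genes were lowest in PBS 5, and their exon lengths are 7050, 8165 and 3345 bases. Mavs falls in the fourth length class, where PBS 5 was not low for genes in general (median log2 ratio 0.06).

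The summed level of interferon-stimulated genes was even between the tumours, while the single genes varied as much as genes in general. Their median CV was 0.180, as over all genes at 1 CPM or more. PBS 4 was the highest tumour for 12 of the 30 and PBS 5 for 11. PBS 1 was the lowest tumour for 14 and PBS 5 for 9. Over all genes at 1 CPM or more, the highest tumour was PBS 4 for 18.7% and PBS 5 for 36.0%. The lowest was PBS 1 for 17.2% and PBS 5 for 35.9%. All 30 of the list were at 1 CPM or more, they summed to 736, 831, 774, 897 and 817 CPM, and the CV of the sum was 0.0753. Bst2, tetherin, and Isg15, a ubiquitin-like modifier, were the highest per kb at 64.8 ± 14.01 and 58.2 ± 20.6, and Isg15 had 34.9, 41.8, 33.0, 39.4 and 71.2 CPM. PBS 5 was above the others for Isg15, a gene of 756 bases, and it was not above them for the sum. Mx1, an antiviral GTPase that many laboratory strains carry in a defective form, was the lowest at 0.462 ± 0.0811 CPM per kb. The interferon genes Ifnb1 and Ifng were not analysed here.

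Antigen presentation genes were highest in PBS 4, class II more so than class I. The 10 class I genes summed to 3635, 4481, 3863, 5377 and 4215 CPM. The 8 class II genes summed to 656, 699, 727, 1326 and 682 CPM. Each of the 8 was highest in PBS 4, against 18.7% of all genes at 1 CPM or more. Cd74, the invariant chain, had 305, 322, 346, 638 and 264 CPM. H2-Ea, a class II alpha chain that Balb/c mice express, had 57.9, 64.2, 58.4, 116 and 83.1 CPM. Ciita, the class II transactivator, had 16.2, 19.5, 22.2, 33.2 and 11.1 CPM. Without PBS 4 the CV of the class II sum was 0.0432 in place of 0.349. Dendritic cell genes were also highest in PBS 4, with 182 CPM against at most 136, as were keratinocyte genes. The part of either cell type in the class II levels was not tested.

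Of the checkpoint genes, Cd47, the signal that restrains phagocytosis, and Lgals9, galectin 9, were the highest at 39.6 ± 7.93 and 37.3 ± 1.15 CPM per kb. Lgals9 had 75.3, 80.8, 81.4, 80.2 and 80.5 CPM, a CV of 0.0309. Cd274, PD-L1, had 30.3, 23.0, 24.7, 46.1 and 26.6 CPM and was highest in PBS 4. Its receptor Pdcd1, PD-1, had 0.572, 0.225, 0.154, 0.638 and 0.318 CPM, and Tigit stood at 0.176 CPM per kb, near the level of the T cell genes. Havcr2, TIM-3, which macrophages also express, stood at 1.87 ± 0.479.

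Xist, the RNA of the inactive X chromosome, had 88.0, 69.1, 99.6, 42.0 and 126 CPM, which is 4.74 ± 1.77 CPM per kb. PBS 4 was the lowest and PBS 5 the highest tumour, although Xist is a long RNA (17946 bases) and long genes were low in PBS 5 in general. The host mice were female. The sex of the RENCA line is not given in the sources used here, and Y-linked genes were not analysed here.

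Keratinocyte, skeletal muscle and erythroid genes were the 3 lists whose summed level varied most between the tumours. Their CVs were 0.643, 0.640 and 0.551, and each was highest in a different tumour. For each list the promoters of 2 of its highest members per kb are printed, because these lists varied most. They run from 250 bases before to 50 bases after the gene start in RefSeq's GRCm38.p6 annotation, which gave a window for 510 of the 681 listed genes measured. Capitals mark the motifs searched for that list, on both strands.

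Keratinocyte genes were high in PBS 4, with sums of 21.0, 34.8, 17.1, 81.7 and 47.2 CPM over the 5 genes measured. Dsp, desmoplakin of the desmosome, which is on the epithelial list, had 0.0357, 0.0321, 0.0769, 15.9 and 0 CPM. Krt10, the keratin of differentiated epidermis, had 0.0715, 0.0642, 0.0385, 31.3 and 0.278 CPM. Krt14, the keratin of basal epidermis, had 0.0357, 0, 0.231, 17.9 and 0.915 CPM. In the other 4 tumours none of these genes reached 1 CPM. Outside the list, Col17a1, the hemidesmosome collagen, with 0.143, 0.0642, 0.115, 5.04 and 0.199 CPM, and Dmkn, the epidermal protein dermokine, with 0.322, 0.192, 0.538, 7.05 and 0.358 CPM, had the same pattern. Krt17, the keratin of hair follicles and injured epidermis that carcinomas can also express, did not: it had 19.8, 33.8, 15.5, 29.5 and 45.5 CPM and was highest in PBS 5. It made up 71.4% of the summed CPM of the list. Trp63, the factor of stratified epithelium, stood at 0.0502 CPM per kb. Krt5 was not analysed here.

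For keratinocyte genes the motif searched was the TATA box TATAAA, found in 13.6% of all 32851 windows. The window of Krt10 (chr11:99389315-99389614, minus strand) holds 1 match and that of Krt14 (chr11:100205981-100206280, minus strand) none. Whether the Krt14 window lies at the start used by the gene was not checked, so the lack of a match describes that window only.
Krt10 promoter: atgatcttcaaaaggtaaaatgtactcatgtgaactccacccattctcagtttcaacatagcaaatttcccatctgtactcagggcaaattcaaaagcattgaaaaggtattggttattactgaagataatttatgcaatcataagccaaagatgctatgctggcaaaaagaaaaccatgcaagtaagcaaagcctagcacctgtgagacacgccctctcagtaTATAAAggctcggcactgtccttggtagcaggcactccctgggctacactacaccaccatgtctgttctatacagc
Krt14 promoter: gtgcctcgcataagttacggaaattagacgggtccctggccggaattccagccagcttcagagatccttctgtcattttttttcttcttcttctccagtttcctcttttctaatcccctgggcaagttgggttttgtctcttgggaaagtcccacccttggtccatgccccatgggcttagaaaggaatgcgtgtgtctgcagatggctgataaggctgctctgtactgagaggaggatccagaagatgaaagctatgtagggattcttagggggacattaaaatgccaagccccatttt

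Skeletal muscle genes were high in PBS 3 and PBS 5 and lowest in PBS 1. The 20 genes summed to 125, 273, 656, 185 and 446 CPM. Of the 18 at 1 CPM or more, 15 had a CV above 0.5, against 2.58% of all genes at that level. Acta1, skeletal actin, had 9.90, 24.5, 71.7, 14.3 and 65.7 CPM. Ckm, muscle creatine kinase, had 3.25, 11.03, 20.8, 7.93 and 29.3 CPM. Ttn, the giant sarcomere protein titin, had 13.6, 51.1, 191, 37.3 and 53.7 CPM. The myosins did not move as one. Myh4, the fast IIB myosin, had 16.1, 50.1, 47.4, 30.5 and 37.5 CPM. Myh2, the fast IIA myosin, had 0.143, 1.64, 20.8, 0.516 and 6.72 CPM. Myh7, the slow myosin, had 0.214, 0.192, 4.88, 0.0911 and 1.11 CPM.

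The developmental myosins, which muscle makes before birth and during regeneration, were highest in PBS 3. Myh3, embryonic myosin, had 0.572, 0.225, 8.81, 0.182 and 0.915 CPM and Myh8, perinatal myosin, had 0, 0, 5.34, 0 and 0.278 CPM, and a tumour without a count of Myh8 could still hold up to the level of 3 counts. In PBS 5 Acta1 was near and Ckm above its level in PBS 3, while the long gene Ttn was below it, as was Neb, the thin filament ruler nebulin, with 2.75, 8.98, 43.0, 6.26 and 16.6 CPM. Ttn and Neb have exon lengths of 116825 and 26582 bases, and the part of length in this difference was not tested. Eno3, the muscle enolase, was the highest of the list per kb and less variable, with 52.4, 55.1, 73.9, 45.8 and 96.4 CPM and a CV of 0.318.

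For muscle genes the motifs were the E-box CAGCTG, present in 16.3% of all windows, and TATAAA. The window of Acta1 (chr8:123894726-123895025, minus strand) holds 1 match to each and that of Eno3 (chr11:70656926-70657225, plus strand) 1 CAGCTG. A match describes the letters and is not evidence of binding.
Acta1 promoter: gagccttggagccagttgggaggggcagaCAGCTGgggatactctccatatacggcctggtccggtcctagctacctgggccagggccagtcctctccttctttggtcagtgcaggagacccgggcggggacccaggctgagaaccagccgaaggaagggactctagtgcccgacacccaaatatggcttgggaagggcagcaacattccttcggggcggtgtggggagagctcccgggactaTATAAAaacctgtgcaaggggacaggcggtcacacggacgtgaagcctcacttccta
Eno3 promoter: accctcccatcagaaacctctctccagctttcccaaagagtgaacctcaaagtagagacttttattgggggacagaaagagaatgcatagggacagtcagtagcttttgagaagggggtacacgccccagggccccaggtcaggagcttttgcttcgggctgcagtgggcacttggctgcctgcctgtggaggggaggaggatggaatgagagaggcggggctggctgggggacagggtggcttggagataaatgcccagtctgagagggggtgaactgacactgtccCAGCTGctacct

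Erythroid genes were high in PBS 5 and even in the rest. The 8 genes measured summed to 76.6, 83.2, 71.2, 72.9 and 199.7 CPM, and over PBS 1 to PBS 4 the CV was 0.0703. Hbb-bs, adult beta globin, had 30.6, 34.97, 23.3, 23.5 and 113 CPM and made up 44.8% of the mean sum. Hba-a1, adult alpha globin, had 13.9, 16.5, 12.5, 13.6 and 37.7 CPM. Alas2, the first enzyme of heme synthesis in red cells, had 2.25, 1.64, 1.81, 1.58 and 4.69 CPM. Slc4a1, the anion exchanger band 3, had 8.08, 7.99, 14.5, 12.5 and 13.4 CPM and was not highest in PBS 5. The globin genes have exon lengths of 667 to 812 bases, in the shortest class, where the median gene in PBS 5 was 0.48 above the others on the log2 scale. On the same scale Hbb-bs was 2.01 and Hba-a1 1.41 above. Reads of near-identical globin copies can be divided between them.

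For erythroid genes the motifs were the GATA site AGATAA, present in 11.2% of all windows, and the CACCC box, present in 57.5%. The window of Hbb-bs (chr7:103827879-103828178, minus strand) holds 1 of each and that of Hba-a1 (chr11:32283422-32283721, plus strand) 2 CACCC.
Hbb-bs promoter: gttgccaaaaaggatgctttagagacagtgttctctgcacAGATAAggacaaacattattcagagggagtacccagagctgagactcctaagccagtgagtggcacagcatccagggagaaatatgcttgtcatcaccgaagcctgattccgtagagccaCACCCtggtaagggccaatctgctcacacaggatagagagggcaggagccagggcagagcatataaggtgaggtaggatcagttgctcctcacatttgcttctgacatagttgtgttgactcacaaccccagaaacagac
Hba-a1 promoter: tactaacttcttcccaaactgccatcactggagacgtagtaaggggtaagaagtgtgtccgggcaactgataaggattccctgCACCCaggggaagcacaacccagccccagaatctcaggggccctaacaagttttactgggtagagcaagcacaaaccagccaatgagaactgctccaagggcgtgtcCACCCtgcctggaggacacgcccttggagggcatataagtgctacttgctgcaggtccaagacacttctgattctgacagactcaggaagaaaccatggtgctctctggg

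Other tissues that could be carried along gave less uneven sums. The 4 adipocyte genes measured summed to 11.8, 21.7, 9.27, 17.9 and 12.4 CPM, of which Lpl made up 80.6%. Fabp4, a lipid-binding protein of adipocytes and endothelium, had 2.04, 1.09, 1.31, 4.04 and 4.42 CPM. The mammary genes Mucl1 and Csn3 summed to 10.3, 11.003, 6.92, 12.9 and 14.3 CPM, with PBS 3 the lowest. The 8 Schwann cell genes summed to 125, 130.3, 128, 127 and 121 CPM, a CV of 0.0271, of which Pmp22, a myelin protein that many cells make, was 84.4%. Sox10, the factor that defines the lineage, stood at 0.0593 CPM per kb. The 3 platelet genes summed to 18.2, 28.3, 18.9, 20.4 and 28.3 CPM, of which Pf4, a chemokine of platelets and some macrophages, was 79.4%.

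**Figure D4:**
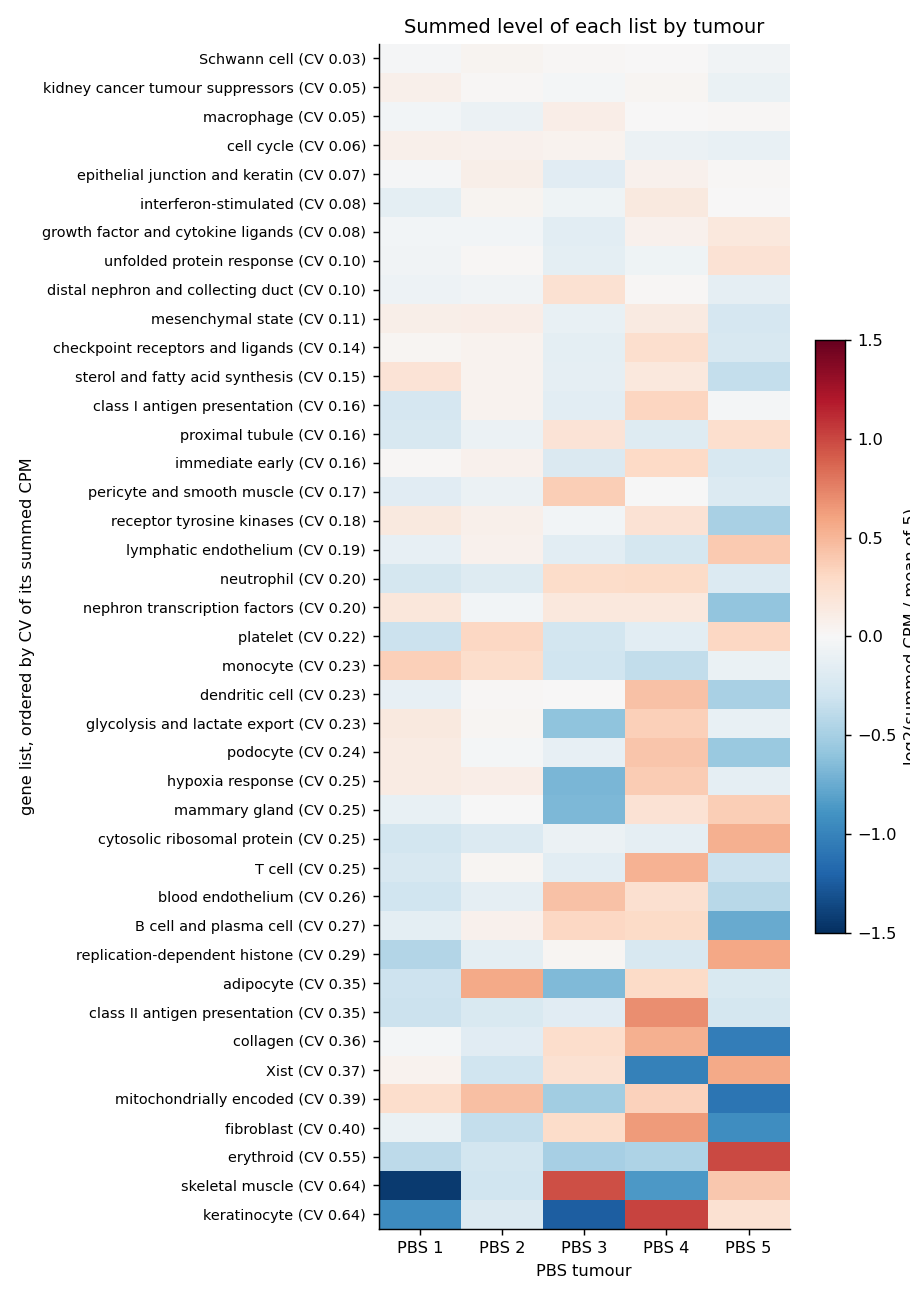
Summed CPM of each gene list in each PBS tumour, as log2 of its ratio to the mean of the 5 tumours, with lists ordered by their CV; lists whose mean sum is under 10 CPM are not drawn. Keratinocyte genes stand out in PBS 4, muscle genes in PBS 3, erythroid genes in PBS 5, and hypoxia and glycolysis genes are low in PBS 3.

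For most genes the variation between tumours was well above counting noise. Over the 13757 genes at 1 CPM or more the median CV was 0.180, with 10% of genes below 0.0786 and 10% above 0.346. The median CV that counting alone would give was 0.0341, and 84.4% of genes had more than 2 times their own counting CV. A CV above 0.5 was reached by 355 genes, of which 50 had a mean of 10 CPM or more. The common biological coefficient of variation, edgeR's estimate of the spread between tumours beyond counting, was 0.216. It was 0.152 without PBS 5, and the median CV was then 0.109. The same estimate within the SLR14 tumours was 0.129, over 14175 genes in place of 14679. The 2 groups were not tested against each other.

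**Figure D5:**
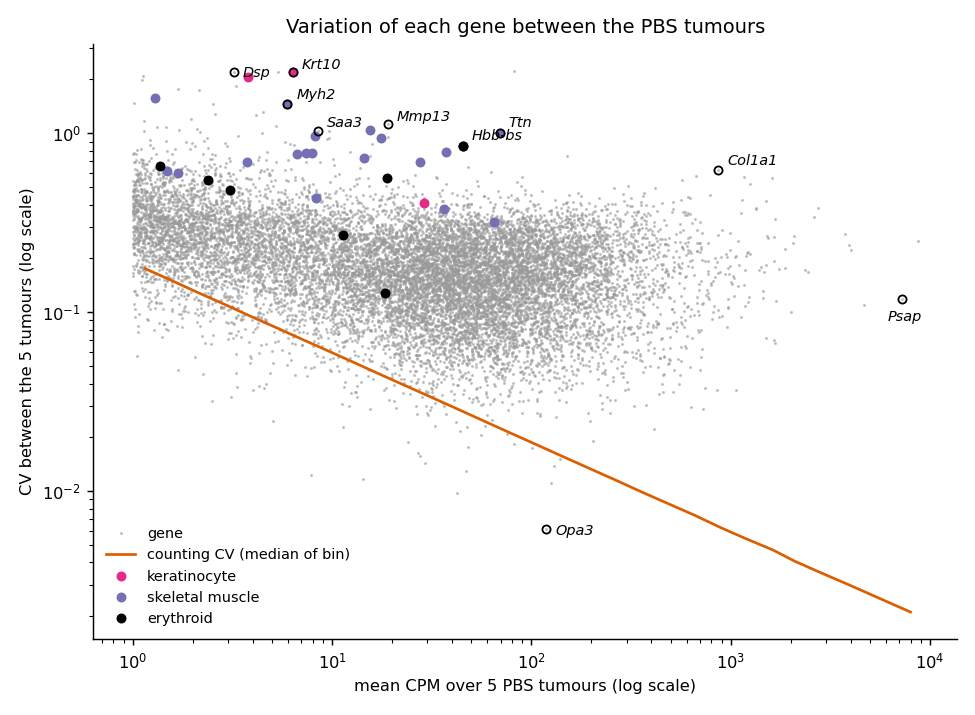
CV between the 5 PBS tumours (log axis) against mean CPM (log axis) for every gene at 1 CPM or more; the line is the median CV that counting alone would give at that level. Coloured points are keratinocyte, skeletal muscle and erythroid genes, most of which lie above the bulk of genes at their level, and circled points are the genes labelled by name.

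The most variable genes outside those 3 lists also followed single tumours. Of the 30 genes of highest CV, 14 were highest in PBS 4, 14 in PBS 3, 1 in PBS 5, 1 in PBS 2 and 0 in PBS 1. In PBS 4, the collagenase Mmp13 had 9.40, 8.37, 9.38, 57.1 and 10.8 CPM. Sfrp2, a secreted Wnt modulator of fibroblasts, had 0.750, 0.930, 1.31, 8.45 and 1.47 CPM. Cpxm1, a secreted carboxypeptidase-like protein, had 1.358, 1.41, 2.58, 13.5 and 1.83 CPM. In PBS 3, Col11a1, a fibrillar collagen of cartilage and activated fibroblasts, had 1.22, 1.57, 15.1, 2.31 and 2.27 CPM. Thbs4, a matrix protein of tendon and muscle, had 0.643, 2.76, 15.2, 3.49 and 4.10 CPM. In PBS 2, Gsta2, a glutathione S-transferase, had 0.608, 6.06, 0.769, 1.85 and 1.63 CPM. In PBS 5, Saa3, an acute phase protein made by macrophages and stroma, had 4.00, 6.86, 2.92, 4.71 and 24.1 CPM, 3.51-fold above the next tumour.

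A gene was taken to stand apart where 1 tumour was at least 3-fold above the next highest or at most 1/3 of the next lowest. Of the 13757 genes, 31 did so upward and 55 downward. Upward there were 1, 2, 10, 14 and 4 genes in PBS 1 to PBS 5, and downward 9, 5, 13, 8 and 20. PBS 3 and PBS 4 had most of the high genes, and PBS 5 had more low ones than any other tumour. With a 2-fold gap PBS 5 had 372 genes in both directions together and no other tumour more than 83.

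Among the genes low in PBS 5 were long ones. Lrp1, a large endocytic receptor, had 935, 682, 628, 626 and 187 CPM. Kmt2d, a histone methyltransferase, had 462, 349, 364, 304 and 93.9 CPM. Tnxb, tenascin X, had 121, 132, 125, 139.5 and 35.5 CPM, with exon lengths of 17717, 19931 and 12209 bases. In the other 4 tumours each of these genes was at more than 3 times its level in PBS 5. Low in PBS 1 were, among others, Eln, elastin, with 0.5003, 4.65, 10.7, 24.4 and 8.19 CPM, and Myh1, the fast IIX myosin, with 1.14, 4.56, 21.2, 3.98 and 10.3 CPM. Low in PBS 3 were, among others, Clec4d, a C-type lectin of myeloid cells, with 1.72, 3.34, 0.538, 1.91 and 2.03 CPM, and Mucl1, a mammary and skin mucin-like protein, with 3.25, 3.85, 0.807, 5.10 and 3.98 CPM. Low in PBS 4 was Lyve1, with 3.18, 2.53, 2.15, 0.668 and 5.13 CPM, and low in PBS 2 was Cdh11, a cadherin of mesenchymal cells, with 6.79, 2.09, 12.5, 9.96 and 6.88 CPM.

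At the other end, 15 genes at 10 CPM or more had CVs from 0.00614 to 0.0190. Opa3, a mitochondrial protein, had 118, 119, 118, 119 and 119 CPM, and its CV was below the 0.0172 that counting alone would give. Mbtps2, the protease that releases sterol-regulatory factors, had 42.6, 42.4, 41.8, 42.9 and 42.7 CPM. Smarcb1, a subunit of the SWI/SNF complex, had 123, 126, 127, 126 and 124 CPM. Anapc5, a subunit of the anaphase-promoting complex, had 206, 209.8, 200.3, 203 and 201 CPM. Mbd3, a subunit of the NuRD complex, had 133, 129, 128, 129 and 130.2 CPM. Copz1, a coat protein of Golgi vesicles, had 136, 141, 140.5, 141 and 139.9 CPM. These genes were picked as the least variable of 9715, so their CVs are the lower end of a range and not an estimate for other tumours.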

How the data were processed

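Tumour RNA was depleted of ribosomal RNA, enriched with oligo(dT) beads and copied with random hexamers, per the labels' protocols. Reads were processed with Trim Galore 0.6.7, STAR and DESeq2 1.36.0 on genome build mm39, per the submitters' processing notes. The counting program, annotation and use of strand are unknown (not given in the sources used here), and levels of paralogs and of overlapping or antisense genes are uncertain. The authors deposited raw counts per gene and, in a second table, a signal in which each tumour's counts are multiplied by 1 factor. That deposited signal was used as an alternative only. In the deposited signal every listed gene reaches 5 or more in 3 or more of the 10 tumours, so that a gene low in the PBS group can be listed for its level in the other group.

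Counts were scaled with TMM factors of the 5 PBS tumours in edgeR 4.0.16 (R 4.3.3) and given as CPM. Python 3.11.15 with pandas 2.3.3 was used for the rest. No test was made between groups. Exon-union lengths came from a GRCm38 annotation, a different build from the counts, and were used as lengths only; 795 genes, with 1.29% of counts, had none. The coefficient of variation (CV) is SD over mean. The biological coefficient of variation was estimated after filterByExpr with a minimum count of 10, and was tested on simulated data. The floor of 3 counts covers counting error only.

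Named genes were the 25 of highest CPM per kb, the 3 highest, the lowest and the most variable member of each list, the 30 of highest CV, the 20 of highest CV without PBS 5, the 15 of lowest CV at 10 CPM or more, the 8 that stood apart most in each tumour and direction, and 24 set genes. Predicted genes, pseudogenes and receptor segments were left out. Members and lists were chosen with earlier results of these data known, and other genes were named after their values were seen. Alternatives were DESeq2 1.42.0 size factors, total counts, upper-quartile factors, other CPM minima, no count filter, other measures of spread, the longest transcript, a 2-fold gap and leaving out each tumour in turn.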

Additional observations from a re-analysis of the deposited data

Results flagged for a closer look

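In groups of 5, a tumour was singled out where its gap to the nearest other tumour was more than 0.71 of the whole range, which chance gives in about 1 of 20 groups. This held for 4 of the 43 gene lists. The summed level of natural killer and cytotoxic genes was 3.37 CPM in PBS 2, that of erythroid genes 199.7 CPM in PBS 5, that of class II antigen presentation genes 1326 CPM in PBS 4 and that of cytosolic ribosomal protein genes 35415 CPM in PBS 5. The share of all counts in ribosomal protein genes was 3.69% in PBS 5 and far above that of the other 4 tumours.

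Of the 116 genes whose values in every tumour are printed, 35 had such a tumour. They were not chosen at random, since the naming rule picks variable genes. The share of all 13757 genes at 1 CPM or more with such a tumour was not counted. The count of 35 is therefore not a result about the printed genes. In PBS 4, 11 genes stood far above the other tumours: Cd3e at 0.577, Cd74 at 638, Cd8a at 0.608, Col17a1 at 5.04, Cpxm1 at 13.5, Dmkn at 7.05, Dsp at 15.9, Krt10 at 31.3, Krt14 at 17.9, Mmp13 at 57.1 and Sfrp2 at 8.45 CPM. In PBS 3 there were 8: Acta2 at 41.8, Aplnr at 27.3, Col11a1 at 15.1, Myh3 at 8.81, Myh7 at 4.88, Myh8 at 5.34, Thbs4 at 15.2 and Ttn at 191 CPM. In PBS 2 there were 5: Cxcl9 at 5.90, Gsta2 at 6.06, Gzmb at 0.481, Ncr1 at 0.513 and Timd4 at 1.80 CPM. PBS 5 was far above the others for 7 genes and far below them for Pax5 and Tnxb: Alas2 at 4.69, H4c14 at 3219.6, Hba-a1 at 37.7, Hbb-bs at 113, Isg15 at 71.2, Pax5 at 14.001, Saa3 at 24.1, Spp1 at 1998 and Tnxb at 35.5 CPM. PBS 1 was the low tumour for Copz1 at 136 and for Lgals9 at 75.3 CPM, both genes with a small spread.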

How the results depend on the processing

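DESeq2's size factors moved none of the 96 values recomputed with them by more than the spread between tumours, or 1.5 times for a count or CV. Total counts moved 2 of 96, the CVs of the tumour suppressor and macrophage sums, and upper-quartile factors 4 of 96, which added the CV of the mesenchymal sum, 0.0695 in place of 0.112, and a count. Under upper-quartile factors 13 genes stood apart in PBS 5, against 24 with TMM. The CPM minimum of 10 left 50 genes with a CV above 0.5 in place of 355, and it tests fewer genes. A 2-fold gap in place of 3-fold gave 35, 32, 83, 57 and 372 genes that stood apart in PBS 1 to PBS 5. Of the 30 genes of highest CV, 17 were among the 30 of highest SD of log2(CPM + 1) and 12 among the 30 of highest tagwise biological coefficient of variation, and the cause was not tested. The authors' normalized values, put on the CPM scale, give total-count scaling by construction.

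Leaving out each tumour in turn gave a median CV of 0.109 to 0.193, a common biological coefficient of variation of 0.152 to 0.235 and 298 to 447 genes with a CV above 0.5. The genes that stood apart numbered 9 to 32 in PBS 1, 7 to 15 in PBS 2, 23 to 48 in PBS 3, 26 to 37 in PBS 4 and 27 to 48 in PBS 5. The CV of the list sum was 0.0681 to 0.599 for erythroid genes, lowest without PBS 5, and 0.119 to 0.566 for natural killer genes, lowest without PBS 2. It was 0.450 to 0.765 for keratinocyte and 0.533 to 0.777 for skeletal muscle genes. PBS 5 decided the median CV, which was 0.109 without it and 0.183 to 0.193 without any other tumour. No paired analysis was possible because the results come from no test.

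Depth limits lymphocyte and dendritic cell genes, of which those under the level of 3 counts cannot be ordered. Each tumour gave 1 library, so differences between tumours and between libraries cannot be told apart.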

Other observations

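Predicted genes were left out of the naming rule, and 2 of them, named here after their values were seen, were as variable as the most variable named genes, with CVs of 2.23 and 2.20. The highest CV of a named gene was 2.21, for Dsp. Gm22513, which RefSeq types as a small nuclear RNA, had 409, 0.449, 0.0769, 0.0911 and 0.318 CPM in PBS 1 to PBS 5, or 11446 counts in PBS 1 and at most 14 in each other tumour. Gm55118 had 26.5 CPM in PBS 5, from 666 counts, and at most 0.160 CPM in the others. Each was thus high in a single tumour, and a different one.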
